A study of Mus musculus with 14 samples.

Results

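In 14 single mesangial cells of the mouse kidney glomerulus, 9 complement genes were followed: the components C1ra, C1s1, C4b, C3, Cfb and Cfd and the regulators Serping1, Cd55 and Cd59a. They were taken by symbol from a table of 35271 genes, and all 9 were found. The cells came from 1 male wild type mouse of 8 weeks, named C57BL/6 in the series text and C56BL/6 in the sample labels, and they form 1 group with no treatment and no control. Glomeruli were collected with magnetic beads and digested with enzymes, and a Fluidigm C1 instrument captured each cell and made its cDNA. Each cell is 1 library, named GL_M_ and a number. With 1 animal, the values describe these cells and carry no p-value.

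Mesangial cells are contractile cells that hold the capillary loops of the glomerulus together and lie close to the blood plasma. Complement is a cascade of plasma and membrane proteins that marks surfaces for clearance. In the classical pathway the proteases C1r and C1s are bound to C1q, and C1r activates C1s, which cleaves C4 and C2. In the alternative pathway factor D cleaves factor B on C3b, and both routes end in cleavage of C3 and assembly of a membrane pore. Cells are shielded by C1 inhibitor, the product of Serping1, which blocks C1r and C1s, by decay-accelerating factor (Cd55), which breaks up the enzymes that cleave C3, and by CD59, which blocks the pore. Complement deposits in the mesangium are known from several kidney diseases.

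Levels are RPKM, reads scaled by gene length and by the read total of the cell, and an RPKM of 1 or more counts as detection. Of the 9 genes, 4 were detected in at least 1 cell, namely Serping1, C1s1, C1ra and Cd59a, and the same 4 reached 10 or more. The same limits were met by 29.2% and 22.3% of all genes in the table and by 41.8% and 33.9% of its protein-coding genes, the class that all 9 belong to. C4b, Cfb and Cfd were listed at 0 in every cell, as were 57.1% of all genes and 44.3% of the protein-coding ones. C3 and Cd55 had traces below the limit. The share of members detected somewhere, 44.4%, was therefore near that of protein-coding genes. Serping1 and C1s1 were the members that recurred from cell to cell: both were detected in at least 10 cells, against 2.72% of all genes and 4.15% of protein-coding genes. Of the 126 pairs of a member and a cell, 25 were detected and 18 were at 10 or more, where the table as a whole has 8.38% and 5.25% of its pairs and protein-coding genes 12.5% and 8.21%.

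The detected members that have an entry among the RefSeq promoters are shown first, since C1ra and C1s1 are neighbours in the genome whose products act in 1 complex. On chromosome 6, C1ra ends at 124523443 on the plus strand and C1s1 ends at 124530345 on the minus strand. The genes lie tail to tail with 6901 bases between them. The 250 bases before a RefSeq start of each gene, 5′ to 3′ on the gene's strand, are from RefSeq on GRCm38.p6, where 6 of the 9 members had an entry. RefSeq gives C1s1 2 starts, of which the one farther upstream is used, and its C1ra start lies inside the gene span given below. C1ra is from chr6:124512371-124512620 (plus), C1s1 from chr6:124542360-124542609 (minus) and Cd59a from chr2:104095551-104095800 (plus). Capitals mark motif matches.
C1ra: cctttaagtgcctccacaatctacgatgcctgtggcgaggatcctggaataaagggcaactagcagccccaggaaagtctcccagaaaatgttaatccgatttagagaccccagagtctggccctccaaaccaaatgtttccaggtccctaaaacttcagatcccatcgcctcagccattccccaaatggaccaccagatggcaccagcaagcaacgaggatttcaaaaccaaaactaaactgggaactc
C1s1: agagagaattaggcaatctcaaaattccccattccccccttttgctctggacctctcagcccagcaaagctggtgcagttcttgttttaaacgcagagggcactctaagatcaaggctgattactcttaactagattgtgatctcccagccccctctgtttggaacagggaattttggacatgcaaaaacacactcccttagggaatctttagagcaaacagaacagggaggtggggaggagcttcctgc
Cd59a: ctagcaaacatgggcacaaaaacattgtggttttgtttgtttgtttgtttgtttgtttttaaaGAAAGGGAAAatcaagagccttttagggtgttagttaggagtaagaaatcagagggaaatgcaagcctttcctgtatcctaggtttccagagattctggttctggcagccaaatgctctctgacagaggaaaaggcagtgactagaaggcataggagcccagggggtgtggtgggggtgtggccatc

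The motifs searched on both strands of the 32851 promoter windows of this length were TTCNNNGAA, the GAS element of interferon gamma signalling, the core of the interferon response element (GAAA, any 2 bases and GAAA), the NF-kB motif, TATAAA and CCAAT. They occur in 7.02%, 2.98%, 7.25%, 12.4% and 33.8% of all windows. In the promoters shown, the interferon response core was found in Cd59a, on the plus strand at -187 to -178 from the start, and no other match was found. No match says only that these letters are not in this window.

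**Figure D1:**
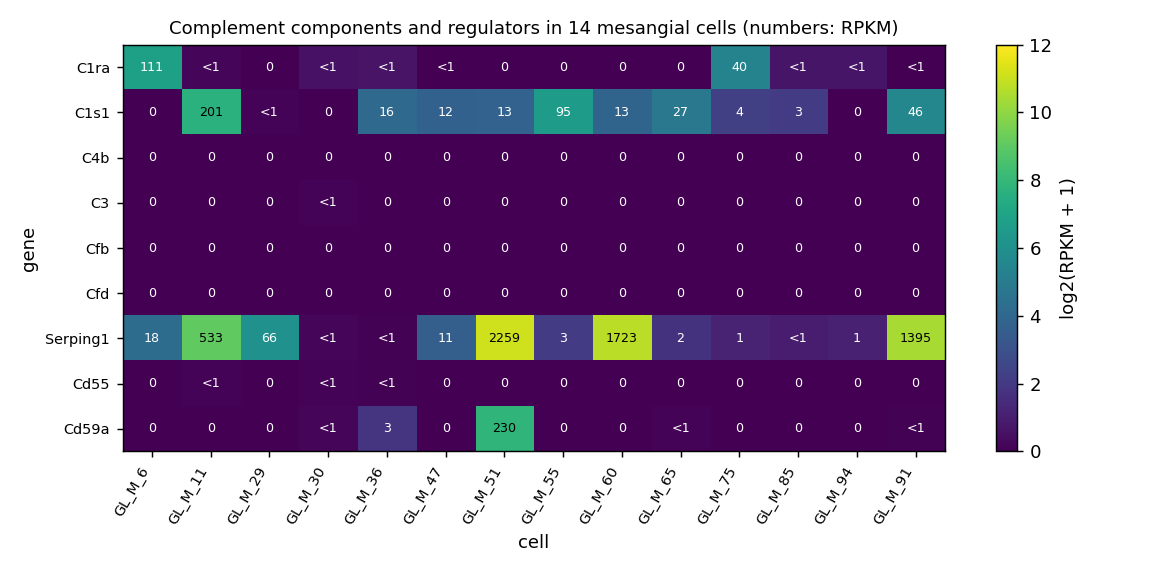
Level of each of the 9 complement genes (rows) in each of the 14 cells (columns), coloured by log2(RPKM + 1) and printed as RPKM. Serping1 and C1s1 fill most cells, C1ra and Cd59a are each at 10 or more in at most 2 cells, and the rows of C4b, Cfb and Cfd are 0 throughout.

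Serping1 (ENSMUSG00000023224, chromosome 2 from 84765387 to 84775444, minus), the gene of C1 inhibitor, had the highest single values of the 9 and, at the limit of 1, the most cells. At limits of 5 and 10 it was found in 7 cells, against 8 for C1s1, whose median was also higher. Serping1 was above 0 in all 14 cells and detected in 11 (78.6% of cells, Clopper-Pearson 95% interval 49.2% to 95.3%). Its RPKM was 2259 in GL_M_51, 1723 in GL_M_60, 1395 in GL_M_91 and 533 in GL_M_11. These 4 cells stood apart from the next, GL_M_29 at 66.4, GL_M_6 at 17.7 and GL_M_47 at 11.2. The lower cells were GL_M_55 at 3.19, GL_M_65 at 2.33, GL_M_75 at 1.26 and GL_M_94 at 1.17, and below the limit GL_M_85 at 0.945, GL_M_30 at 0.109 and GL_M_36 at 0.0516. The median was 7.20, which is the midpoint of a wide gap: leaving out 1 cell at a time, the median log2(RPKM + 1) of 2.84 moved between 2.07 and 3.61, and without the 3 deepest cells it was 1.73. The mean log2(RPKM + 1) was 4.47 ± 4.20 (SD, n = 14 cells of 1 mouse), so the spread between cells was about as large as the mean.

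In GL_M_51 Serping1 ranked 33 among all genes of the cell, and it ranked 68 in GL_M_60, 106 in GL_M_91 and 287 in GL_M_11. In GL_M_51 it stood above Serpine2, another serpin and one of the strongest mesangial transcripts, at 2259 against 1462. Serpine2 was higher in the other 13 cells. The reads behind these values, recovered from the steps of the RPKM table, numbered 62154 in GL_M_51 and 59292 in GL_M_60. The 5 cells between an RPKM of 0.945 and 3.19 had 12 to 35 reads, and GL_M_30 and GL_M_36 had 2 and 1. Those 5 values equal 0.0418% to 0.141% of the level in GL_M_51. With values under 0.2% of a gene's highest cell set to 0, Serping1 was detected in 7 cells.

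The 3 cells with the most Serping1 were also those with the most reads and the fewest detected genes. GL_M_60, GL_M_51 and GL_M_91 had 23.8 M, 19.0 M and 17.7 M reads and 1770, 1894 and 1810 detected genes, while the other cells had 6.60 M to 13.4 M reads and 2407 to 5277 genes. The part of these library features in the Serping1 level was not tested. GL_M_11, with 533, had 8.04 M reads and 2846 genes. Over the 14 cells, which share 1 animal and 1 preparation, log2 Serping1 had a Pearson r of 0.65 (Spearman's rho 0.32) with the read total and of -0.61 (rho -0.70) with the number of genes. Without the 2 cells farthest from the median, r was 0.30 for the read total (without GL_M_51 and GL_M_60) and -0.79 for the genes (without GL_M_36 and GL_M_47). The relation with read total thus rested on those deep cells. For C1s1 the r was 0.17 (rho 0.08, and 0.14 without the same cells) with the read total and -0.08 (rho -0.31, and -0.39 without the same cells) with the genes.

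**Figure D2:**
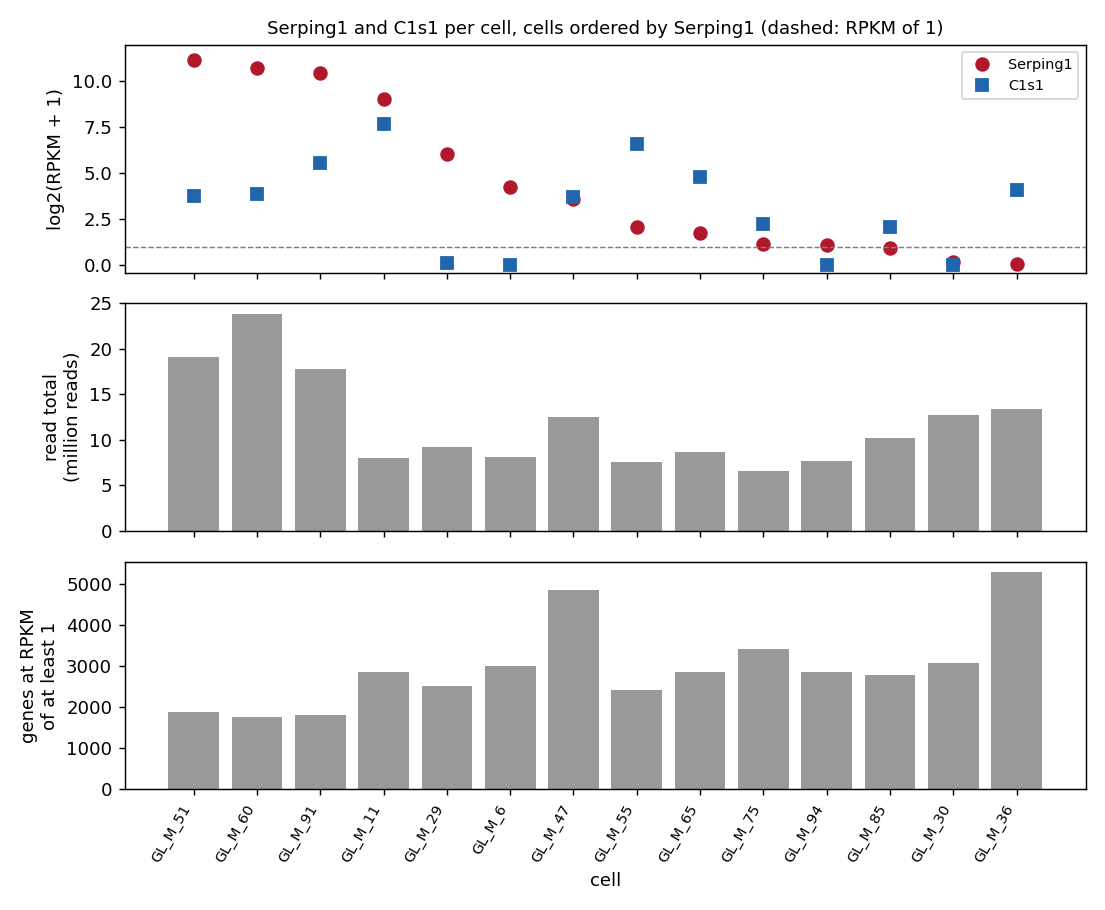
Top, log2(RPKM + 1) of Serping1 (circles) and C1s1 (squares) in the 14 cells, ordered by Serping1, with a dashed line at an RPKM of 1. Below, bars give each cell's read total (M reads) and its number of detected genes, both on linear axes from 0; the 3 cells highest in Serping1 are the deepest, at 17.7 M to 23.8 M reads, and have the fewest genes, 1770 to 1894.

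C1s1 (ENSMUSG00000038521, chromosome 6 from 124530345 to 124542359, minus), the protease that C1r activates and that cleaves C4 and C2, was detected in 10 cells (71.4%, interval 41.9% to 91.6%) and was at 10 or more in 8. It was highest in GL_M_11 at 201, followed by GL_M_55 at 95.1, GL_M_91 at 45.8 and GL_M_65 at 26.8. GL_M_36, GL_M_60, GL_M_51 and GL_M_47 lay close together at 16.1, 13.5, 12.7 and 12.3. GL_M_75 and GL_M_85 were at 3.81 and 3.18, GL_M_29 had 1 read (0.0735), and GL_M_6, GL_M_30 and GL_M_94 were listed at 0. The median was 12.5, and its log2(RPKM + 1) of 3.76 moved between 3.74 and 3.78 when 1 cell at a time was left out and was 2.27 without the 3 deepest cells.

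Serping1 and its target C1s1 were both at 10 or more in 5 cells, GL_M_11, GL_M_47, GL_M_51, GL_M_60 and GL_M_91. Serping1 alone of the pair was at 10 or more in GL_M_6 and GL_M_29, C1s1 alone in GL_M_36, GL_M_55 and GL_M_65, and neither in the remaining 4. At the limit of 1, both were detected in 8 cells and GL_M_30 was the single cell with neither. The correlation of their log2 levels was weak (r = 0.38, rho = 0.34, 14 cells; 0.42 without GL_M_51 and GL_M_60).

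C1ra (ENSMUSG00000055172, chromosome 6 from 124512405 to 124523443, plus), the protease that activates C1s, was detected in 2 cells (14.3%, interval 1.78% to 42.8%), GL_M_6 at 111 with 2464 reads and GL_M_75 at 40.1 with 728 reads. In GL_M_94, GL_M_85, GL_M_36 and GL_M_30 it was at 0.616, 0.603, 0.569 and 0.485, from 13 to 21 reads. GL_M_11, GL_M_47 and GL_M_91 had 3, 1 and 1 reads, and the other 5 cells were at 0. The neighbours C1ra and C1s1 were detected together in GL_M_75, where C1s1 was at 3.81. In GL_M_6, which had the most C1ra, C1s1 was listed at 0, and 9 cells had C1s1 without C1ra. Their paralogs C1rb and C1s2 were at most at 0.0624 and 0.0424. C1ra shares 50.8% of its 50-base stretches with transcripts of other genes, mostly C1rb, and C1s1 35.1%, mostly with C1s2, so the levels of both are uncertain. In addition, 18.4% of the exon bases of C1s1 (576 of 3129) overlap Gm16567 on the opposite strand, which was at 0 in every cell. Serping1 shares no such stretch.

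Cd59a (ENSMUSG00000032679, chromosome 2 from 104095801 to 104115354, plus), the inhibitor of the membrane pore, was detected in 2 cells (14.3%, interval 1.78% to 42.8%). It was at 230 in GL_M_51, from 6112 reads, the only cell at 10 or more, and at 2.57 in GL_M_36, from 48 reads. GL_M_30, GL_M_65 and GL_M_91 had 3, 1 and 1 reads and the other 9 cells were at 0. GL_M_51 is also the cell with the most Serping1. Its library thus held transcripts for inhibitors of the first and of the last step of the cascade, beside Cr1l, described below, at 75.2. In the same cell 3 of 12 podocyte markers were at 10 or more, with a summed RPKM of 531 against 0.427 to 2178 over all cells. Nphs1 was listed at 0 there, and the part of podocyte RNA in the Cd59a level was not tested. The paralog Cd59b was at 11.9 in GL_M_75, from 46 reads, and at 0 elsewhere.

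Cd55 (ENSMUSG00000026399, chromosome 1 from 130439027 to 130462744, minus) had 4 reads over all 14 cells, 2 in GL_M_30 and 1 each in GL_M_11 and GL_M_36, with an RPKM of at most 0.0935. Its paralog Cd55b was at 0 throughout. C3 (ENSMUSG00000024164, chromosome 17 from 57203970 to 57228136, minus), on which all routes converge, had 2 reads, both in GL_M_30 (0.0942). With 0 of 14 cells at the limit, the Clopper-Pearson interval for each reaches up to 23.2% of cells. C3 shares no 50-base stretch with other annotated transcripts and Cd55 shares 9.12%. With 3 reads as the floor, C3 was below an RPKM of 0.0756 to 0.273 and Cd55 below 0.0750 to 0.271, depending on the depth of the cell.

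C4b (ENSMUSG00000073418, chromosome 17 from 34728380 to 34743882, minus), Cfb (ENSMUSG00000090231, chromosome 17 from 34856374 to 34862518, minus) and Cfd (ENSMUSG00000061780, chromosome 10 from 79890853 to 79892655, plus) had no read in any cell. The zeros are not equally firm, and the floors below assume the mean transcript length, which a gene without reads cannot show. Cfd, factor D, shares no 50-base stretch with other annotated transcripts, and its floor was an RPKM of 0.140 to 0.507. C4b, with a floor of 0.0548 to 0.198, shares 34.6% with C4a, which was also 0 in every cell. For Cfb, factor B, the floor was 0.0718 to 0.259, and 79.5% of its exon bases (2246 of 2825) lie within exons of Gm20547, a gene annotated on the same strand across C2 and Cfb and itself at 0 in every cell. Reads that fall on 2 genes can be left out of both in counting, and the sources used here do not give how they were treated.

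The length behind each RPKM bears on comparisons between genes. Values became whole reads when the mean of a gene's annotated transcript lengths was used, which for Serping1 is 1445 bases against 1768 for its longest transcript and for C1s1 1472 against 2946. Short annotated fragments thus raise the RPKM of C1s1 2.001-fold and that of Serping1 1.22-fold over a value per longest transcript. Per longest transcript the medians were 5.89 for Serping1 and 6.25 for C1s1, in place of 7.20 and 12.5. The order of their medians did not exceed the spread between cells. Their ranges overlapped in part: in the deposited values, the 4 highest Serping1 cells, at 533 or more, lay above the highest C1s1 value of 201. C1ra followed with a median of 0.0823, and the other 6 had a median of 0. Comparisons of 1 gene between cells are not touched by the length.

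**Figure D3:**
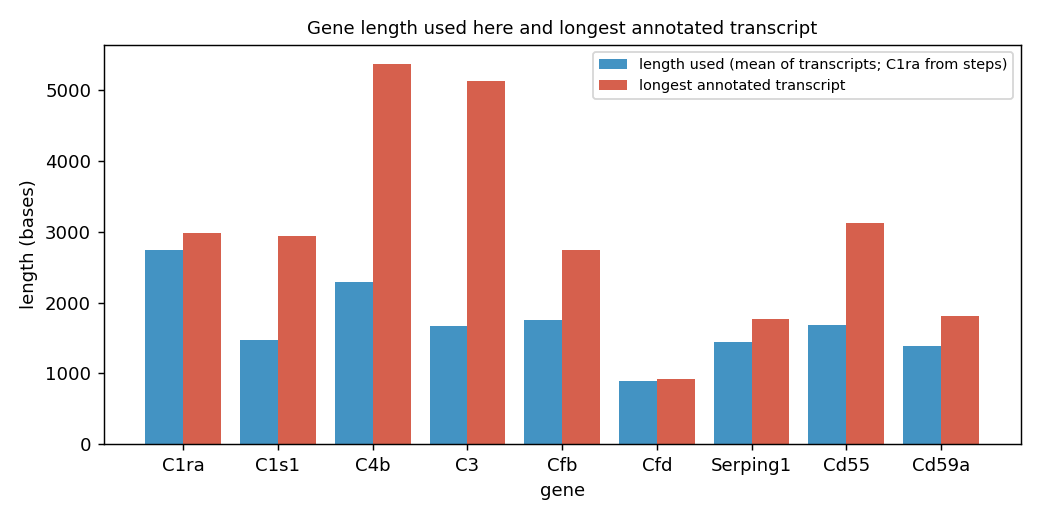
For each of the 9 genes, the length in bases used here (for C1ra from its own steps, otherwise the mean of the annotated transcripts) and that of the longest annotated transcript (GENCODE M21). C1s1 has a ratio of 2.001 and Serping1 of 1.22; for C4b, Cfb and Cfd, which have no reads, the length used is assumed from the annotation.

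The other genes of the cascade were taken from a list of 59 that includes the 9. Of the 59, 15 were detected in some cell and 13 reached 10 or more, fewer by share (25.4%) than the 41.8% of protein-coding genes. In at least 7 cells 5 were detected, where 5.93% of all genes and 9.01% of protein-coding genes were. They were Serping1, C1s1, Cr1l, Calr and Lrp1. By step of the cascade, all 8 genes of the lectin pathway, among them Mbl2, Masp1 and Masp2, were 0 in every cell. C3, Cfb, Cfd and Cfp (properdin) made 0 of 4 for the alternative pathway, and the terminal pathway gave 0 of 7, with traces of Hc, the gene of C5, and C6 of at most 0.0606. In the classical pathway 3 of 11 were detected, C1ra, C1s1 and C1rl. The chains C1qa, C1qb and C1qc had at most 0.104, and C2, the partner of C4, at most 0.749. C1rl, a C1r-like protease, was at 137 in GL_M_55 and 5.25 in GL_M_47. In GL_M_55 the podocyte list was at its highest, with 5 of 12 markers at 10 or more, and its part in that level was not tested.

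Regulators were represented by other genes than Cd55. Cr1l, the gene of Crry, a rodent membrane protein that blocks cleavage of C3, was detected in 7 of 14 cells (interval 23.0% to 77.0%), each of them at 10 or more. Its RPKM was 625 in GL_M_65, 413 in GL_M_85, 223 in GL_M_36, 87.6 in GL_M_75, 81.3 in GL_M_6, 75.2 in GL_M_51 and 25.0 in GL_M_47. The other 7 cells were at 0.471 or less, so the cells fell into a high and a low set with a wide gap. Cr1l shares 4.34% of its 50-base stretches with other transcripts.

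Serping1 and Cr1l were both at 10 or more in 3 cells, GL_M_6, GL_M_47 and GL_M_51, and both at 1 or more in 5, out of 7 with Cr1l and 11 with Serping1. Each was at 10 or more without the other in 4 cells, and GL_M_30, GL_M_55 and GL_M_94 had neither. With each gene at 10 or more in 7 of 14 cells, 3 shared cells show neither pairing nor avoidance. Of the 17 soluble and membrane regulators of the list, 0 were at 10 or more in GL_M_55 and in GL_M_94. Over all protein-coding genes, 8.21% of the pairs of a gene and a cell were at 10 or more. With 17 genes, 0 is not far from that share. C1s1 was at 95.1 in GL_M_55. Thbd, thrombomodulin, was at 276 in GL_M_30 and 0 in the other 13 cells. GL_M_30 also had the most endothelial RNA, 10 of 13 markers at 10 or more and a summed RPKM of 4128 against 8.34 to 2075 in the other cells, and the part of that RNA in the Thbd level was not tested. Cd46 reached 5.49 in GL_M_75, Cfi and Vtn were at 0 throughout, and Clu was at most 0.177.

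**Figure D4:**
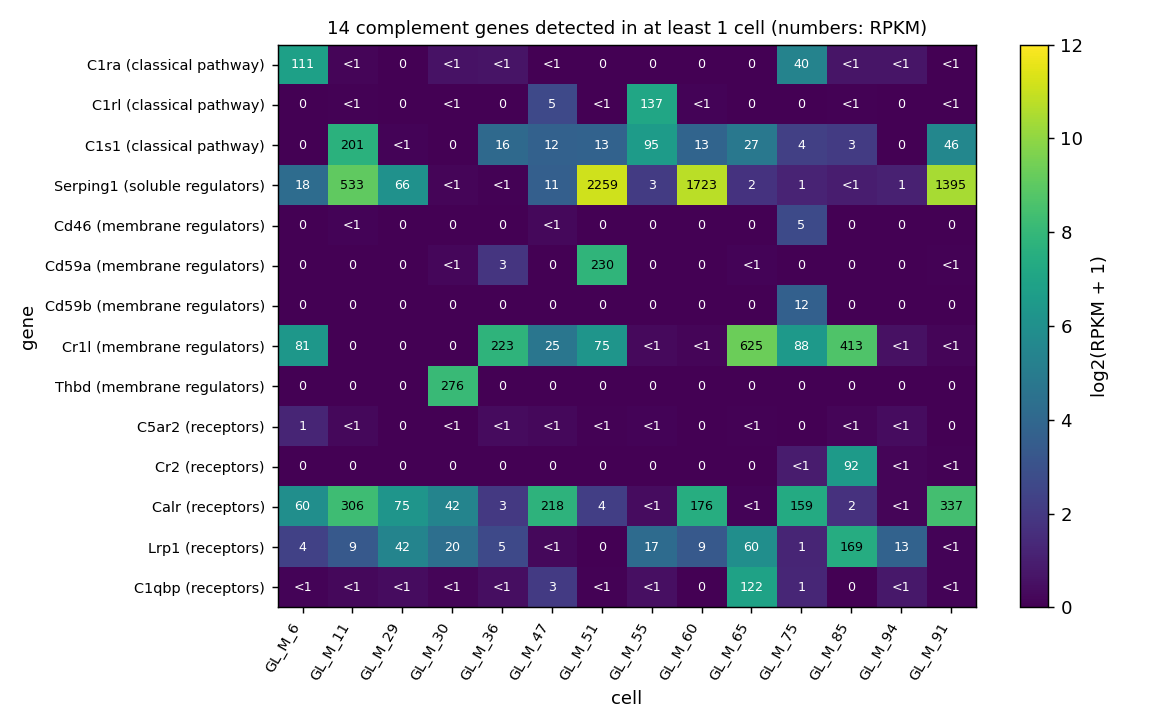
Of the 15 complement genes detected in at least 1 cell, 14 (rows, with their role) in the 14 cells (columns), coloured by log2(RPKM + 1) and printed as RPKM. Serping1 and Cr1l are each at 10 or more in 7 cells, 3 of which they share.

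Among receptors and binding partners, Calr, calreticulin, a binder of C1q that is chiefly a chaperone of the endoplasmic reticulum, was above 0 in all 14 cells, at 0.0986 to 337 with a mean log2(RPKM + 1) of 4.53 ± 3.24 (SD, n = 14 cells of 1 mouse). Lrp1, the endocytic receptor that removes complexes of serpins with their proteases, was detected in 11 cells and highest in GL_M_85 at 169. The deposited Lrp1 values rest on a mean length of 2697 bases, where the longest transcript has 14888, which makes them 5.52 times a value per longest transcript. In GL_M_51, highest in Serping1, Lrp1 was listed at 0. C1qbp reached 122 in GL_M_65. Cr2, complement receptor 2, was at 91.6 in GL_M_85 and below 1 elsewhere. In GL_M_85 the leukocyte marker Fcer1g was at 923, while Ptprc, Cd68, Csf1r and Tyrobp were at 0. The receptors for the fragments of C3 and C5, C3ar1 and C5ar1, were at most 0.0262 and 0.0313, C5ar2 reached 1.39 in GL_M_6, and the leukocyte integrin chain Itgb2 was 0 in every cell.

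The 14 cells, and with them the Serping1 and C1s1 values, were checked against markers of their own and other types. Of 9 mesangial markers, 6 to 8 were at 10 or more in each cell, and Tbx18 was at 0 in all 14. Endothelial and podocyte transcripts were widespread. Among endothelial markers, Eng and Ehd3 reached the limit in 14 of 14 cells, 13 cells had at least 2 of 13 endothelial markers at 10 or more, and the summed RPKM of the list had a median of 899. GL_M_51, highest in Serping1, was the cell with 0 at 10 or more. Of 12 podocyte markers 0 to 5 were at 10 or more in a cell, the summed RPKM had a median of 88.8, and Wt1 was detected in 7 cells. Of the fibroblast markers Dcn, Lum, Col1a1 and Dpt, each was at 0 in 13 cells, including the 4 cells with the most Serping1, and at most 0.299 in GL_M_30. The other 2 fibroblast markers were Pi16, at most 13.1, and Pdgfra, which was at 149 in GL_M_51, 96.4 in GL_M_60, 16.9 in GL_M_11 and 0.0258 in GL_M_91 and highest in GL_M_55, at 551. The part of endothelial, podocyte or fibroblast RNA in the Serping1 and C1s1 levels was not tested. Of 11 leukocyte markers, at most 1 was at 10 or more in any cell, and Cd68, Csf1r, Adgre1, Tyrobp and Aif1 were at 0 throughout. Of 6 proximal tubule markers 0 were detected. GL_M_30, the cell with the most endothelial RNA, had 0 detected members. GL_M_55, the cell with the most podocyte RNA, had 2 detected members. Leaving it out takes the 25 detected pairs to 23 by that count alone, so this does not test the part of podocyte RNA.

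Genes around the members were read from 3 further lists. Of 19 genes of cytokine signalling that can raise complement transcription, all 19 were detected in some cell, where 41.8% of protein-coding genes were. Jak1, a kinase of interferon and interleukin-6 receptors, was detected in 13 cells (mean log2(RPKM + 1) 6.49 ± 3.29, SD, n = 14 cells), and Il6st, the shared receptor chain gp130, in 12 (5.26 ± 3.22). Ifngr2, a chain of the interferon gamma receptor, was detected in 10 cells, with a median of 29.3. Jak1 was highest in GL_M_91, at 3896, and GL_M_51, at 834. GL_M_85 and GL_M_36, both with Serping1 below 1, followed at 637 and 376, above GL_M_60 at 318 and GL_M_11 at 214. Il6st was highest in GL_M_51, at 903, and was at 5.37 in GL_M_60. The part of cytokine signalling in the Serping1 level was not tested.

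Cd55 and Cd59a are held in the membrane by a GPI lipid anchor. Of the 25 genes of anchor synthesis listed, 24 were in the table and 18 were detected in some cell and 3 in at least 7 cells, beside 41.8% and 9.01% of protein-coding genes. The highest by mean log2(RPKM + 1) were Pigv, a mannosyltransferase, with up to 265 in GL_M_75, Pigp with up to 542 in GL_M_85, Pigx with up to 30.9 in GL_M_65, and Dpm2 with up to 847 in GL_M_75. In GL_M_51, the cell with the most Cd59a, Pigv was at 0.308 and Pigp, Pigx and Dpm2 were listed at 0. Pigf was at 129 and Pigl at 2.10 there, and these names were added after their values were seen. The part of anchor synthesis in the Cd59a level was not tested. Of 9 genes of the contact and kinin system, whose proteases C1 inhibitor also blocks, 8 were in the table and 1 of them, Plat, was detected, at 473 in GL_M_30 and 406 in GL_M_51. F11, F12, Kng1, Kng2, Bdkrb1 and Plg were at 0 throughout.

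The genes whose log2 level over the 14 cells was most like that of Serping1, among 4344 genes detected in at least 4 cells, were Ptms (r = 0.77, rho = 0.67), Rbm8a (r = 0.74, rho = 0.52) and Vasn (r = 0.73, rho = 0.62). Without GL_M_51 and GL_M_60 their r was 0.65, 0.64 and 0.51. Ptms was at 1632 in GL_M_91 and 1280 in GL_M_51, and at 168 in GL_M_60. For C1s1 they were Park7 (r = 0.76, rho = 0.75), Ndufa7 (r = 0.71, rho = 0.75) and Cyb5a (r = 0.70, rho = 0.63), with 0.76, 0.81 and 0.77 without GL_M_11 and GL_M_55. These describe 14 cells of 1 animal, and the names were picked as the highest of 4344. By Spearman's rho or without those cells, 0 of the 3 names recurred for either gene.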

How the data were processed

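The data are RPKM values per gene and cell, deposited by the authors as 1 table of 35271 Ensembl genes and 14 cells, all of 1 group. The submitters' processing notes name TopHat2 2.0.12, HTSeq 0.6.1 and mm10, without their roles. Not given in the sources used here are the annotation release, the strand setting, how reads on several places were treated and how cells were filtered. The 9 members and all lists were chosen with earlier results of these data known.

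Symbols and coordinates came from GENCODE M21 on GRCm38, which matched 34488 genes. Each cell's read total follows from the RPKM that 1 read is worth at genes with 1 annotated transcript, where 84.7% to 89.7% of values below 50 reads came within 0.02 reads of a whole number. Totals ran from 6.60 M to 23.8 M reads, with a median of 9.75 M. In a test on simulated reads of 34488 genes, 14 of 14 totals were found within 0.1%. The values of Serping1, C1s1 and Cd59a, and the 4 low values of C3 and Cd55, came out whole at the mean of the annotated transcript lengths. The length of C1ra, 2751 bases, was read from its own steps, and for C4b, Cfb and Cfd, with no reads, the mean was assumed. Amplified reads are not independent molecules, so the floor of 3 reads and the intervals cover counting error and the sampling of cells only.

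Detection was an RPKM of at least 1. Log levels are log2(RPKM + 1), which compresses low levels. An exact 0 is given as listed, and mean ± SD only for genes above 0 in all 14 cells. Intervals on shares are Clopper-Pearson (95%). Likeness was Pearson's r of log2 levels over cells, for members detected in at least 4 cells, with the 3 highest named. The other names were all 9 members, their paralogs, listed complement genes at an RPKM of at least 10 and the 4 highest of each other list, except genes that are not reported here. Bdkrb2, second of the contact list by mean with at most 0.0467, stands here, and complement genes below 10 are named after their values were seen. Shared sequence is the share of a gene's 50-base stretches found in another gene's transcripts on either strand. Python 3.11.15, numpy 2.4.6, scipy 1.17.1 and pandas 2.3.3 were used.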

Additional observations from a re-analysis of the deposited data

How the results depend on the processing

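Counts of the 9 members were recomputed with other limits, scalings, lengths and cells. The 4 detected members stayed 4 at limits of 0.5, 5 and 10. Leaving out 1 cell could not change that count, since each of the 4 was detected in at least 2 cells. In the runs that left out 1 cell, the detected pairs of a member and a cell (25) ranged from 22 to 25. The pairs at 10 or more (18) ranged from 15 to 18, and the complement genes detected (15) from 13 to 15. Counting any value above 0 gave 43 pairs and 34 of the 59 complement genes. Without the 3 deepest cells, a choice made after seeing the data, 11 pairs were at 10 or more, over fewer cells. At 3 or more reads C1ra was found in 7 cells, at an RPKM of 0.5 in 5, and after rescaling each cell to an equal sum in 5. Serping1 was found in 7 cells at limits of 5 and 10. With lengths of the longest transcript, also added after seeing the data, 24 pairs were detected and 13 were at 10 or more. Of the 3 genes most like Serping1, 1 was kept with no filter on low values, 1 with a pseudocount of 0.1, 0 by Spearman's rho and 0 without the 2 farthest cells. For C1s1 the numbers were 1, 2, 0 and 0, and the cause was not tested. No paired analysis was possible because all cells form 1 group. Depth limits statements on C3, Cd55, C4b, Cfb and Cfd to the 3-read floors given with them.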

Other observations

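The length behind the deposited RPKM is a property of the whole table. At 19535 genes with several annotated transcripts, 54.6% of values below 50 reads came out whole with the rounded mean of the transcript lengths, against 11.02% with the longest transcript, 4.83% with the union of all exons and 3.83% with the shortest. With mean lengths the recovered reads summed to 91.8% to 96.3% of the recovered total of each cell. Genes with many short annotated fragments therefore carry a higher RPKM than a value per full transcript would give, as for Cr1l (1661 bases used, 3859 in the longest transcript) and Calr (1176 and 2184).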
